A study of Mus musculus with 6 samples.

Results

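Expression of 9 complement genes was described in spinal cord cells of mice of a younger and an older age, without disease and with experimental autoimmune encephalomyelitis (EAE), a mouse model of multiple sclerosis. The genes were the 3 chains of C1q (*C1qa*, *C1qb* and *C1qc*), the components *C3* and *C4b*, the alternative pathway factors *Cfb* and *Cfp*, and the receptors *C3ar1* and *C5ar1*. They were taken by name, and the list was chosen with earlier results of these data known. All 9 were found among the 19449 genes of the single-cell table and among the 55351 genes of the bulk table. For EAE, CD4+ T cells reactive to a myelin peptide and polarized with IL-23 had been transferred into naive wild-type C57BL/6 recipients, which were young adult (8 to 12 weeks) or middle-aged (40 to 44 weeks). CD45+ cells were sorted from the spinal cord on day 6 or day 10 posttransfer and made into 1 library per age and day, each from 4 pooled spinal cords. Bulk libraries of spinal cord microglia came from untreated, naive young and middle-aged mice, 1 per age. Both sexes of mice were used in the study, and all recipients of both ages received T cells, so that no single-cell library came from a mouse without EAE.

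Complement is a cascade of plasma and tissue proteins that marks targets for uptake and calls in phagocytes. C1q starts the classical pathway, which then cleaves C4 and C3. Factor B, encoded by *Cfb*, forms the alternative pathway convertase that properdin, encoded by *Cfp*, stabilizes, and the fragments C3a and C5a are sensed through C3ar1 and C5ar1. In the CNS, microglia are known as the main source of C1q, and C1q and C3 take part in the removal of synapses.

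The 3 C1q genes lie next to each other on mouse chromosome 4, all on the minus strand (GRCm38): *C1qb* at chr4:136880129-136886187, *C1qc* at chr4:136889804-136893065 and *C1qa* at chr4:136895917-136898803. *C4b* (chr17:34728380-34743882), *Cfb* (chr17:34856374-34862518) and *C3* (chr17:57203970-57228136) are on chromosome 17. *C3ar1* (chr6:122847138-122856161), *C5ar1* (chr7:16246743-16259540) and *Cfp* (chrX:20925454-20931555) are each on a chromosome of their own. *C4b* has a near-identical copy, *C4a*, so reads of the pair can be split or lost in counting and its level is uncertain.

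Promoters from RefSeq (GRCm38.p6), 250 bases before to 50 bases after the start of a gene, were at hand for 6 of the 9 genes and were searched on both strands for 4 motifs. The PU.1 motif GAGGAAGT, the site of a transcription factor of myeloid cells, occurred in 3.20% of 32851 promoters and in *C1qc*. The NF-kappaB motif (GGG and TTTCC with 2 free bases between them) occurred in 1.63% and in *C3ar1*. The interferon response motif (GAAA and GAAA with 2 free bases between them, 3.44%) and the STAT motif TTCNNNGAA (8.30%) were in 0 of the 6. A match is a match of letters only. The 250 bases before the start are shown for a pair of C1q genes, which moved together below, and for *C3* and *C3ar1*, the ligand precursor and its receptor, with motif matches in capitals. They are at chr4:136886201-136886450 (*C1qb*), chr4:136892915-136893164 (*C1qc*), chr17:57228137-57228386 (*C3*) and chr6:122856158-122856407 (*C3ar1*), 5′ to 3′ on the minus strand.
C1qb: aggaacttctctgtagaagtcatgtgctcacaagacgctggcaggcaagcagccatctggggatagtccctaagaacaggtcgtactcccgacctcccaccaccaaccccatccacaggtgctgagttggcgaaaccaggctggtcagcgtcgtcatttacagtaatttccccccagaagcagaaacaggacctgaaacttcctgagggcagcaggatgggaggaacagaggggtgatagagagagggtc
C1qc: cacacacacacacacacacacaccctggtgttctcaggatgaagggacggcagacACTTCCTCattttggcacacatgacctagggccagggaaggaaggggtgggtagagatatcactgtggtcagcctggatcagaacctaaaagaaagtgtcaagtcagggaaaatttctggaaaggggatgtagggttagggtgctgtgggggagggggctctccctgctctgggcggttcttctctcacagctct
C3: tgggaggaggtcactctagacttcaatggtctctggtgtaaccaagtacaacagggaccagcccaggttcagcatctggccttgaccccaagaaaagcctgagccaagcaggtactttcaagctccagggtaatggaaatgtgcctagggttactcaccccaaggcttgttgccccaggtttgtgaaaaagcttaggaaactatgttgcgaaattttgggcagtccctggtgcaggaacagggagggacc
C3ar1: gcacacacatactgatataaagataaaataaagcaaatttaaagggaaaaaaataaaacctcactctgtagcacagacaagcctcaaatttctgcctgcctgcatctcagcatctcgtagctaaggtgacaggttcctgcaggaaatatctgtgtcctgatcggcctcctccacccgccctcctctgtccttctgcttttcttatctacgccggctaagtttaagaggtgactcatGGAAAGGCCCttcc
Counted from the RefSeq start, the match in *C1qc* begins 195 bases before it and that in *C3ar1* 14 bases before it, both on the opposite strand. The gene coordinates given earlier come from a different annotation, and its start sites can differ from those of RefSeq. By those coordinates *C1qc* starts at chr4:136893065, inside the printed stretch, so part of that stretch lies within the gene.

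The 4 single-cell libraries held 8315 to 10026 cells and 57337626 to 69859331 unique molecular identifiers (UMIs, of which each stands for 1 captured RNA molecule), at median depths of 4704.5 to 6196 per cell. Of 37903 distinct cell barcodes, 154 occurred in 2 libraries, which the files do not explain. Cells carry the authors' cluster numbers without names. By markers, clusters 10 and 8 were microglia-like, 1 and 5 monocyte/macrophage-like, 2 T cell-like, 3 and 6 neutrophil-like, 4 B cell-like, 7 dendritic cell-like and 9 NK-like. Cluster 0, led by *Il1f9* and *Cxcl2*, and clusters 11 to 15 stayed unnamed. *C1qa* and *C1qc* were among the 10 leading genes of cluster 8 and *Cfb* among those of cluster 1, and the clusters were made from the same counts, so levels by cluster are a description. UMIs were summed by cluster and library and divided by the total of that cluster and library, as counts per 1000000 UMIs (CPM). A UMI marks a molecule by a tag at one end of the transcript, so levels of different genes were set side by side without division by length. Values by library are given in the order young day 6, middle-aged day 6, young day 10, middle-aged day 10.

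C1q had the highest UMI levels of the 9 genes, and its level was highest in the microglia-like clusters. *C1qa*, the A chain, stood at 7010, 7001, 8512 and 8908 CPM in cluster 10 and at 7663, 6405, 5583 and 7019 CPM in cluster 8. In monocyte/macrophage-like cluster 1 it stood at 502, 397, 1271 and 1564 CPM, and in cluster 5 at 76.6, 85.4, 390 and 660 CPM. The ranges of clusters 10 and 8 overlapped, and both lay above cluster 1 without overlap. The B chain *C1qb* followed the same order, at 6658 ± 231 CPM (SD, n = 4 libraries) in cluster 10, 6304 ± 1343 in cluster 8 and 1297 ± 674 in cluster 1. *C1qc*, the C chain, stood at 4901 ± 666, 3619 ± 460 and 604 ± 345 CPM in the same clusters. Cells other than microglia were far more numerous, so the microglia-like clusters, with 5.78% to 11.2% of the cells of a library, held 51.8% to 70.1% of its *C1qa* UMIs. Their share of the *C1qb* UMIs was at least 53.0% on day 6 but 47.1% and 39.0% on day 10, when clusters 1 and 5 held more of them, at 50.8% and 58.8%. Their share of *C1qc* ran from 49.4% to 67.6%.

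*C4b*, whose product is cleaved next in the classical pathway, had the same leading clusters at a much lower level. It stood at 57.3, 137, 351 and 263 CPM in cluster 10 and at 89.1, 83.8, 143 and 156 CPM in cluster 8. In cluster 1 it reached 35.6 ± 5.00 CPM, below both without overlap.

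*C3* had a different distribution. Its level was highest in the unnamed cluster 0, at 715, 765, 499 and 633 CPM, and in cluster 1, at 465, 642, 529 and 559 CPM, and the ranges of this pair overlapped. Neutrophil-like cluster 6 held 366 ± 43.3 CPM. The microglia-like clusters were far lower, at 54.1, 101, 125 and 177 CPM in cluster 10 and 81.4, 182, 282 and 315 CPM in cluster 8. Clusters 1 and 5 together held 65.8% to 73.6% of all *C3* UMIs of a library.

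The alternative pathway factors were highest outside the microglia-like clusters. *Cfb* stood at 754, 1085, 991 and 601 CPM in cluster 1, above cluster 5 (253 ± 43.2 CPM) without overlap, and clusters 1 and 5 held 89.4% to 96.0% of its UMIs. *Cfp* was flatter, at 248 ± 35.4 CPM in dendritic cell-like cluster 7, 202 ± 48.6 in cluster 1, 150 ± 61.4 in cluster 5 and 133 ± 8.31 in neutrophil-like cluster 3, with overlapping ranges between neighbours in that order. Clusters 1 and 3 did not overlap. It stood at 17.9 to 21.6 CPM in cluster 10.

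The receptors went separate ways. *C3ar1* was highest in cluster 10, at 161, 207, 234 and 292 CPM, and in cluster 1, at 133, 152, 221 and 238 CPM, with overlapping ranges, and cluster 8 lay lower at 47.6, 49.2, 98.2 and 100.1 CPM. *C5ar1* was highest in neutrophil-like cluster 3, at 462, 496, 426 and 501 CPM, and in cluster 0, at 532, 512, 381 and 349 CPM. In cluster 10 it stood at 291, 221, 168 and 170 CPM, lower in both day 10 libraries than in either day 6 library.

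**Figure D1:**
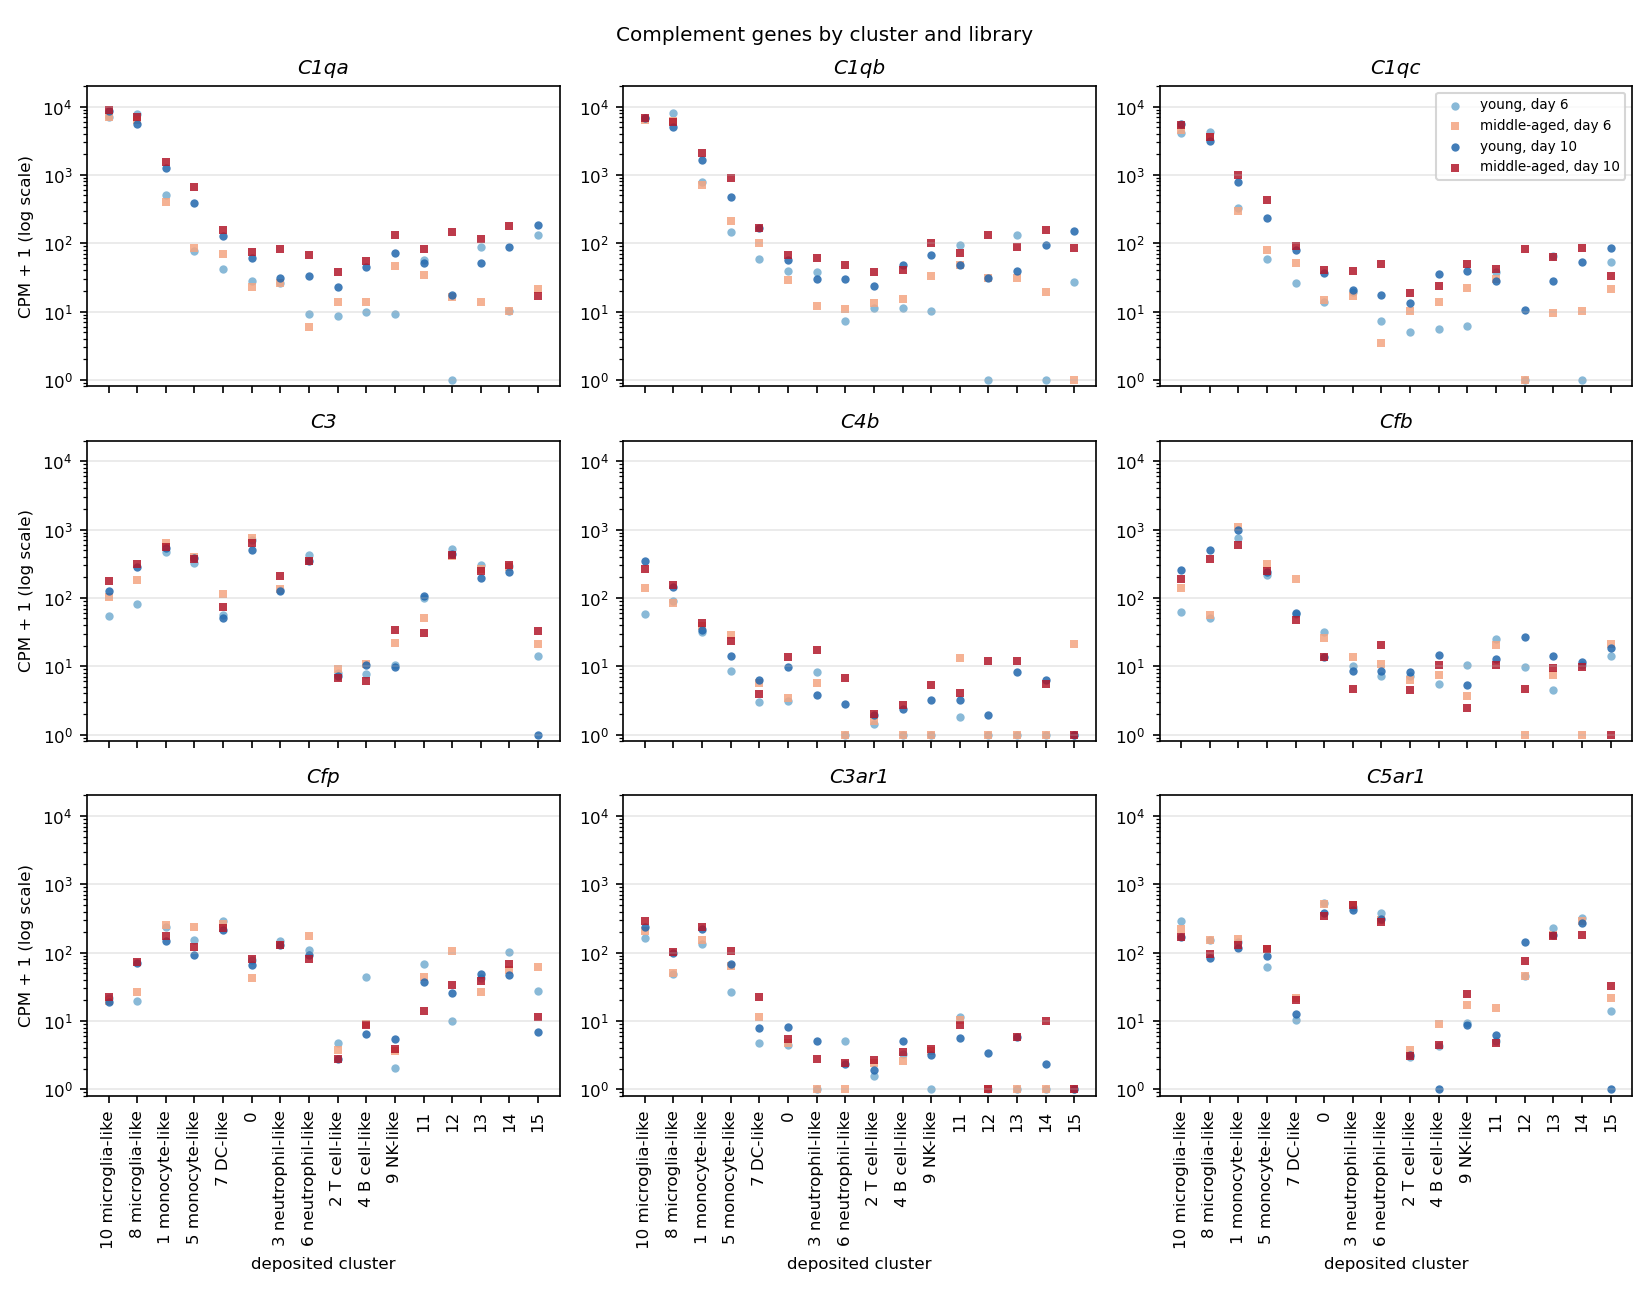
Level of each of the 9 complement genes as CPM + 1 on a log scale (y axis) by cluster (x axis), with 1 point per library, circles for young and squares for middle-aged recipients. The C1q genes and C4b are highest in clusters 10 and 8, Cfb in cluster 1, C3 in clusters 0 and 1, and C5ar1 in clusters 3 and 0.

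The change between day 6 and day 10 was tested in clusters 10, 8, 1 and 5 with edgeR's quasi-likelihood test on the UMI sums, with age and day as terms and Benjamini-Hochberg adjustment over all genes of a cluster. The fit has 4 libraries, 1 per age and day, and 1 residual degree of freedom, and nothing separates mice from libraries. That residual is the difference between the days in the effect of age, combined with spread borrowed across genes. No library has a replicate, so the p-values do not measure the spread between mice or between replicate libraries. The log2 differences of the fit are scaled by TMM. Over plain CPM, this raised the median gene's day difference by 0.15 in cluster 10 and 0.30 in cluster 8. It lowered that difference by 0.17 in cluster 1 and 0.29 in cluster 5. Differences below are relative to that scaling.

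In microglia-like cluster 10, *C3*, *C4b* and *Cfb* rose by day 10 and the other 6 genes did not pass the test. *C4b* rose by a log2 difference of 1.92 ± 0.34 (SE, adjusted p = 0.00569, edgeR), and its level was above both day 6 libraries in both day 10 libraries. *Cfb* rose by 1.41 ± 0.33 (adjusted p = 0.0226, edgeR), from 60.5 and 138 CPM to 257 and 189 CPM, without overlap. *C3* rose by 1.16 ± 0.21 (adjusted p = 0.00553, edgeR). The count of 3 of 9 stands beside 3.18% of 10562 genes that rose in this cluster. The rises were larger in the young pair of libraries, where *C4b* rose by 2.61 and *Cfb* by 2.09 on the log2 scale of plain CPM, than in the middle-aged pair, where they rose by 0.94 and 0.45, and this difference was not tested. *C3* differed by 1.21 in the young and 0.81 in the middle-aged pair.

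The C1q transcripts did not pass the test in cluster 10, at 0.46 ± 0.43 for *C1qa* (adjusted p = 0.600, edgeR). *C3ar1* differed by 0.67 ± 0.22 (adjusted p = 0.0887, edgeR), and was higher on day 10 in both ages. The log2 difference of *C5ar1* was -0.43 ± 0.22 (adjusted p = 0.282, edgeR). Between the days, the summed level of 10 microglia markers in cluster 10 went from 10217 and 6404 CPM to 6717 and 6614 CPM. That of 10 monocyte markers went from 2726 and 2968 CPM to 3982 and 5077 CPM, and that of heat shock genes from 10310 and 3995 CPM to 2756 and 2554 CPM. The monocyte list was split. *Lyz2* (1280 and 896 to 2103 and 2993 CPM), *Chil3*, *Fn1*, *F13a1*, *Ly6i* and *Arg1* were higher on day 10 in each age. *Plac8* (583 and 648 to 132 and 94.6 CPM), *Ly6c2*, *Ms4a4c* and *Ccr2* were lower in each age. The part of these lists in the changes was not tested as such. A further fit left out cells holding 2 or more UMIs of *Ly6c2*, *Ccr2*, *Chil3*, *Plac8* and *Arg1*, a choice made after seeing the data. It kept 310 of 432, 112 of 216, 197 of 362 and 214 of 334 cells, and such a cut also depends on the depth of a cell. In the cells kept, *C3* rose by 2.65 ± 0.25 (adjusted p = 0.00573, edgeR) and *Cfb* by 2.96 ± 0.47 (adjusted p = 0.0289, edgeR). *C4b* differed by 2.18 ± 0.45 (adjusted p = 0.0504, edgeR). Over every cell, DESeq2 called 1 gene, *C3*.

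In microglia-like cluster 8, 5 genes rose, beside 6.5% of 8371 genes in the cluster. *Cfb* rose the most, by 3.29 ± 0.22 (adjusted p = 2.64e-09, edgeR), from 49.2 and 56.1 CPM to 507 and 371 CPM. Its day 6 levels rested on 32 young and 73 middle-aged UMIs, of which 10 cells held 75.0% and 53.4%. *Cfp* rose by 1.93 ± 0.27 (adjusted p = 4.11e-05, edgeR), from 18.4 and 25.4 CPM to 68.7 and 72.8 CPM. *C3* (1.51 ± 0.23), *C3ar1* (1.31 ± 0.23) and *C4b* (1.07 ± 0.20) rose as well, with the largest adjusted p at 0.000988 (edgeR), and for all 5 the days did not overlap. On the scale of plain CPM, *C3* differed by 1.79 in the young and 0.79 in the middle-aged pair of libraries. DESeq2 called 4 of these 5 and not *C4b*.

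Cluster 8 also gained monocyte transcripts between the days. The 10 monocyte markers summed to 1364 and 2311 CPM on day 6 and to 16805 and 19068 CPM on day 10, all of them detected in every library. Of these, *Plac8* (336 and 596 to 209 and 166 CPM) and *Ms4a4c* were lower on day 10 in each age, and the others were higher. The 10 microglia markers went from 6063 and 3957 CPM to 2655 and 3220 CPM. Without cells holding 2 or more UMIs of the 5 monocyte markers, the log2 difference of *Cfp* was 0.25 (adjusted p = 0.858, edgeR). Those of *Cfb*, *C3* and *C3ar1* were then 2.18, 1.63 and 1.29, none past the threshold (adjusted p = 0.0803, 0.156 and 0.0784, edgeR). *C4b* still rose, by 1.93 ± 0.24 (adjusted p = 0.0263, edgeR), and *C1qa* (0.62) and *C1qc* (0.55) then rose too (adjusted p = 0.0383 and 0.0471, edgeR), so that 3 of 9 genes passed. Among cells with at least 1 UMI of a microglial marker, 7 genes rose, *Cfp* included (1.33 ± 0.30, adjusted p = 0.00356, edgeR).

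**Figure D2:**
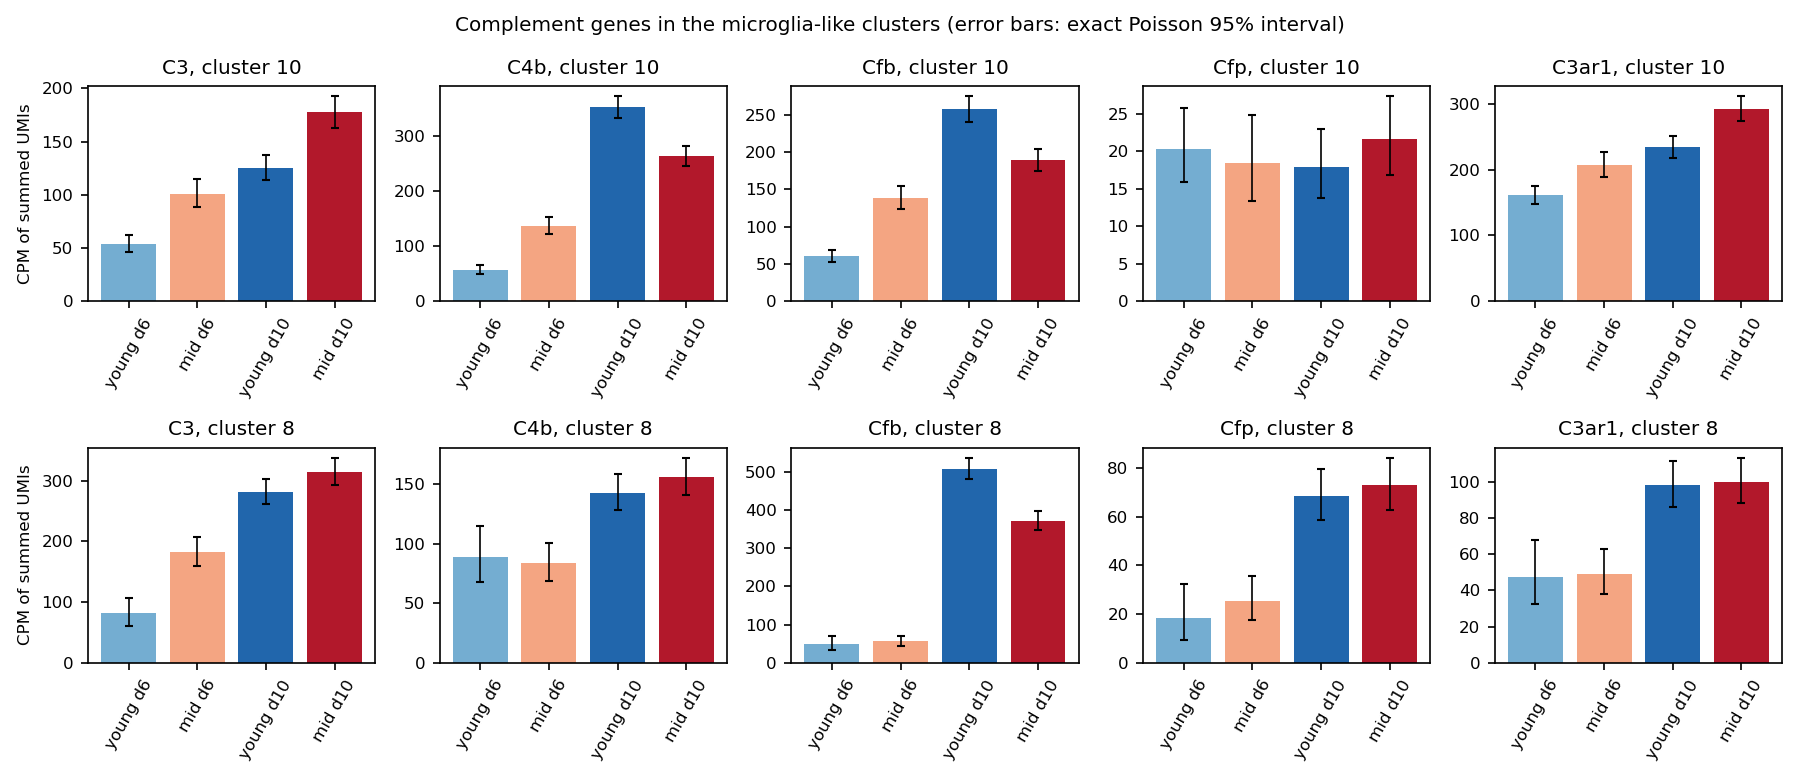
Level in CPM of C3, C4b, Cfb, Cfp and C3ar1 in microglia-like clusters 10 (top) and 8 (bottom), with 1 bar per library (d6 and d10 are the days, mid is middle-aged) and exact Poisson 95% intervals for counting error. In cluster 10 C4b goes from 57.3 and 137 CPM on day 6 to 351 and 263 CPM on day 10, and in cluster 8 Cfb goes from 49.2 and 56.1 CPM to 507 and 371 CPM.

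The share of cells with a UMI moved with the sums. After each cell was thinned to 2000 UMIs, with shallower cells left out, *C4b* was found in 9.25%, 21.0%, 45.3% and 37.6% of cells in cluster 10. *Cfb* was found in 6.33%, 12.6%, 31.9% and 19.7% and *C3* in 5.11%, 11.2%, 14.2% and 20.6%. In the B cell-like cluster 4, taken as background, the shares reached at most 0.474% for *C4b*, 2.47% for *Cfb* and 1.85% for *C3*. Unthinned, *C3* was found in 12.3%, 27.8% and 42.3% of the first 3 libraries of cluster 10, and in the middle-aged day 10 library in 167 of 334 cells, at median depths of 6931, 10000, 8673.5 and 8394 UMIs. Few cells carried much of the signal, since the 10 cells with the most *Cfb* held 61.5%, 61.8%, 25.8% and 41.3% of its UMIs in cluster 10. *C1qa* was less concentrated, with 6.57% to 10.3% of its UMIs in 10 cells.

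In monocyte/macrophage-like clusters 1 and 5 the 3 C1q genes rose together and *Cfp* fell. In cluster 1 *C1qa* rose by 1.49 ± 0.22 (adjusted p = 0.000220, edgeR), *C1qb* by 1.16 ± 0.21 and *C1qc* by 1.34 ± 0.21 (adjusted p = 0.00111 and 0.000402, edgeR), 3 of 9 genes beside 14.7% of 12222 genes. *Cfp* fell by 0.76 ± 0.20 (adjusted p = 0.0107, edgeR; log2), 1 of 9 beside 15.2%, from 233 and 251 CPM to 149 and 173 CPM. In cluster 5 *C1qa* rose by 2.36 ± 0.18 (adjusted p = 3.17e-07, edgeR), *C1qc* by 1.94 ± 0.18 and *C1qb* by 1.61 ± 0.16, and *C3ar1* by 0.74 ± 0.20 (adjusted p = 0.0121, edgeR). These were 4 of 9 genes beside 10.2% of 10379 genes. *C3ar1* differed by 1.40 in the young and 0.71 in the middle-aged pair on the scale of plain CPM, and DESeq2 did not call it. *Cfp* fell by 1.12 ± 0.17 (adjusted p = 0.000189, edgeR), 1 of 9 beside 15.3%. In cluster 1 both day 10 libraries lay above both day 6 libraries in each C1q gene, and the same held in cluster 5. Markers of other cells moved between the days as well. The 9 border macrophage markers summed to 232, 207, 503 and 679 CPM in cluster 1, in the order of the libraries, and to 421, 492, 931 and 488 CPM in cluster 5. In cluster 5 the 10 microglia markers summed to 162, 148, 283 and 263 CPM and the 9 T cell markers to 391, 521, 1179 and 1663 CPM. *Cd163* was at 0 in 1 library of cluster 1, and up to 3 border macrophage and 2 microglia markers were at 0 in a library of cluster 5. Their part in the rise of C1q was not tested.

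*C3*, *C4b*, *Cfb* and *C5ar1* did not pass the test for the day in either cluster. The log2 difference of *Cfb* in cluster 1 was -0.40 ± 0.28 (adjusted p = 0.314, edgeR), and the ages went opposite ways there, from 754 to 991 CPM in young and from 1085 to 601 CPM in middle-aged mice. *C3ar1* in cluster 1 differed by 0.52 ± 0.20 (adjusted p = 0.0619, edgeR).

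**Figure D3:**
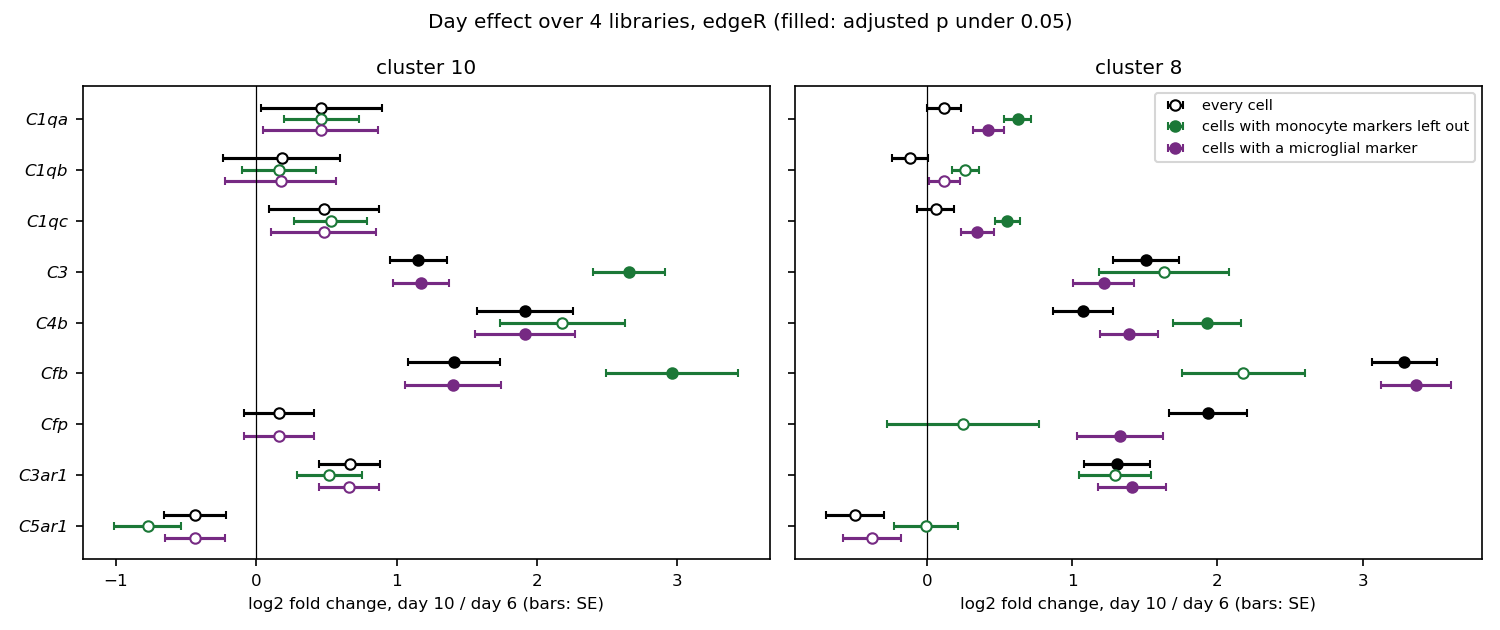
Log2 difference between day 10 and day 6 of the 9 genes in microglia-like clusters 10 and 8 from the edgeR fit, with bars of 1 SE and filled points at an adjusted p under 0.05, for every cell, without cells of monocyte markers and for cells with a microglial marker. C3, C4b and Cfb lie above 0 in both clusters under each choice of cells, while Cfp in cluster 8 goes from 1.93 to 0.25 without cells of monocyte markers.

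More cells of cluster 1 held C1q on day 10. Thinned to 2000 UMIs, *C1qa* was found in 17.9%, 18.1%, 41.8% and 51.3% of them, and in 3.68%, 7.04%, 15.2% and 27.5% of cluster 5. The share in cluster 4 was 1.46%, 1.23%, 5.92% and 7.01%, so the background rose with the days as well but stayed below. Unthinned shares in cluster 1 were 26.3%, 28.0%, 54.2% and 63.9%, against 1.63% to 10.9% in cluster 4, where the median depth was lower. The tenth of cells with the most *C1qa* held 87.4%, 84.6%, 55.2% and 46.5% of its UMIs in cluster 1 and 20.6% to 21.6% in cluster 10, so *C1qa* was less concentrated in cluster 1 on day 10 than on day 6.

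**Figure D4:**
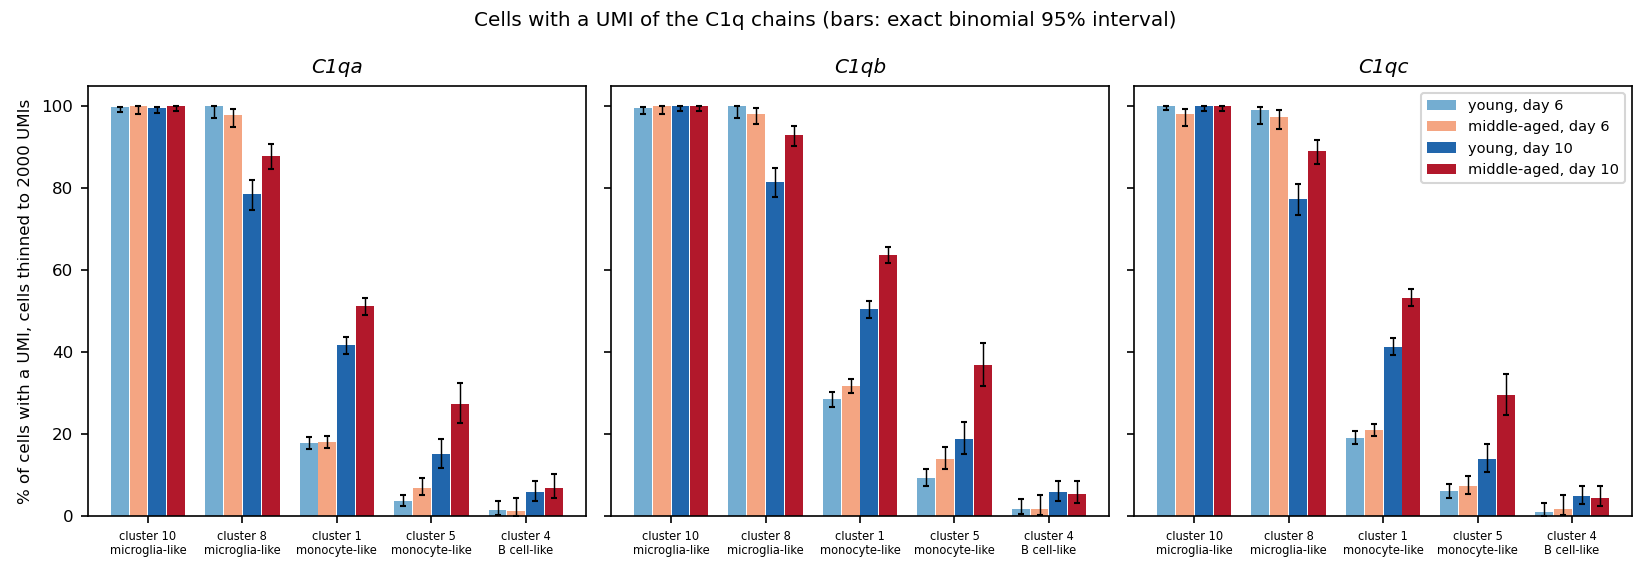
Share of cells with at least 1 UMI of C1qa, C1qb and C1qc after thinning to 2000 UMIs, in percent, by cluster and library, with exact 95% binomial intervals. For C1qa in cluster 1 the share goes from 17.9% and 18.1% on day 6 to 41.8% and 51.3% on day 10, and cluster 4 stays at or below 7.01%.

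The make-up of the C1q transcripts differed between clusters 1 and 10, with cluster 8 between them. *C1qb* gave 48.1%, 50.2%, 44.1% and 44.9% of the C1q UMIs of cluster 1 but 38.0%, 35.5%, 32.5% and 31.9% of those of cluster 10. It gave 40.7%, 38.4%, 36.4% and 35.6% of those of cluster 8. The homeostatic microglia gene *Tmem119* had 1.12 to 1.42 UMIs per 100 *C1qa* UMIs in cluster 1 and 3.97 to 7.97 in cluster 10. Cluster 8 stood at 2.19 to 4.21 and cluster 5 at 0.829 to 2.51, so the microglia-like and monocyte/macrophage-like clusters overlapped in this measure. The microglia markers in cluster 1 summed to 227, 233, 566 and 568 CPM, a rise beside that of C1q whose part was not tested. Of all *C1qa* UMIs of a library, clusters 1 and 5 held 28.4%, 30.0%, 40.2% and 45.9%, while their share of cells was 38.5%, 33.9%, 26.2% and 27.1%.

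Age was compared on each day between single libraries, so a ratio has no replicate check and its 95% interval, exact conditional binomial, covers counting error only. On day 6 in cluster 10, *C3*, *C4b* and *Cfb*, the same genes that rose with the day, were higher in middle-aged recipients. Both comparisons use the young day 6 library, which was the lowest library for each of these genes, so they are not independent. The log2 ratio (middle-aged to young, also below) was 1.26 [1.00, 1.52] for *C4b*, 1.19 [0.94, 1.45] for *Cfb* and 0.90 [0.62, 1.19] for *C3*, which rested on 186 young and 241 middle-aged UMIs. The other ratios ran from -0.40 [-0.55, -0.24] for *C5ar1* to 0.36 [0.19, 0.54] for *C3ar1*, and those of the C1q genes were -0.00, -0.12 and 0.11. These 3 of 9 genes were at least 1.5-fold apart, beside 12.3% of 6668 genes with 100 or more UMIs, and the median of the 9 was 0.11 beside -0.04 over all genes. The 10 cells with the most UMIs held 61.8% of *Cfb*, 46.9% of *C3* and 25.8% of *C4b* in the middle-aged library. The young day 6 library was the one with 10310 CPM of heat shock genes in this cluster, against 2554 to 3995 CPM in the others, and the part of this in the ratios was not tested.

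On day 10 in cluster 10 the ratios of *C4b* (-0.42 [-0.55, -0.29]) and *Cfb* (-0.45 [-0.60, -0.30]) had the opposite sign, and *C3* stood at 0.50 [0.32, 0.69]. *C3ar1* stood at 0.32 [0.18, 0.46] and the C1q genes at 0.07, -0.00 and -0.01. None of the 9 reached 1.5-fold, beside 3.68% of genes, with a median of 0.01 beside -0.00. With cells holding markers of other lineages left out, the day 10 ratio of *C3* fell to 0.04, while that of day 6 was 1.48.

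In cluster 8 on day 6, *C3* was higher in middle-aged recipients, at 1.16 [0.73, 1.62] from 53 and 237 UMIs, 1 of the 7 genes with 100 UMIs beside 12.5% of 2413 genes. The C1q genes stood at -0.26, -0.39 and -0.25, and the median was -0.09 beside -0.02. On day 10 the C1q genes stood at 0.33, 0.23 and 0.20, *C3* at 0.16 [0.01, 0.31] and *Cfb* at -0.45 [-0.58, -0.33]. The ratio of *C3* turned to -0.19 when the mean over cells was taken in place of the sum. None of the 9 was 1.5-fold apart, beside 4.46% of genes, and their median was 0.16 beside -0.04.

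**Figure D5:**
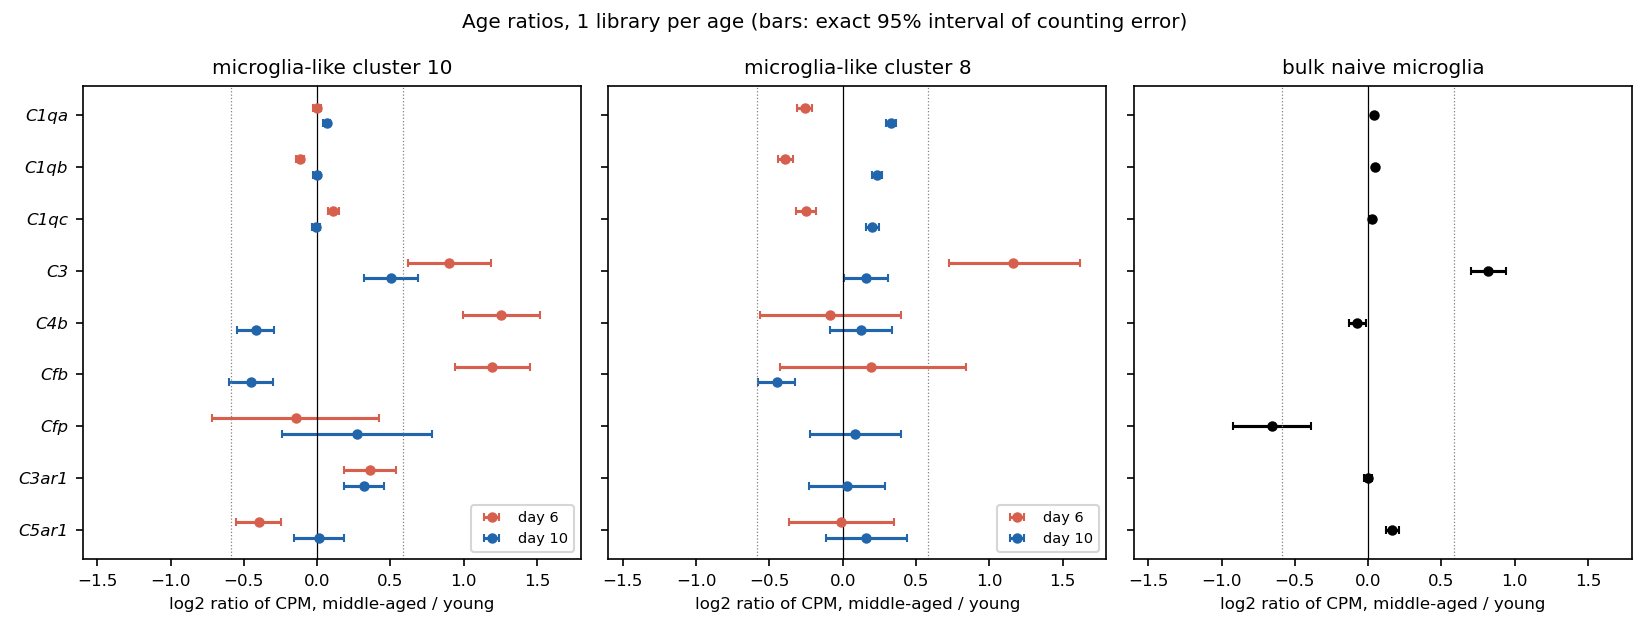
Log2 of the CPM in middle-aged divided by that in young mice for members with 100 or more counts in the pair, on day 6 and day 10 in clusters 10 and 8 and in bulk naive microglia, with 95% intervals for counting error and dotted lines at 1.5-fold. C4b and Cfb in cluster 10 lie above 0 on day 6 and below 0 on day 10, and C3 lies above 0 in all 3 panels.

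In the fit over both days, no gene of the 9 passed the test for age in clusters 10, 8 and 1. *C3* in cluster 10 came nearest, at 0.72 ± 0.20 (unadjusted p = 0.00369, adjusted p = 0.750, edgeR), and was higher in middle-aged recipients on both days. The genes called for age were 0.142% in cluster 10, 0.0956% in cluster 8 and 0.0982% in cluster 1, and the members with an unadjusted p under 0.05 were 1, 1 and 0, while DESeq2 called 0. In cluster 5, *C4b* (1.40 ± 0.26), *C3ar1* (0.99 ± 0.20) and *C1qb* (0.76 ± 0.16) were higher in middle-aged recipients (adjusted p = 0.0280, 0.0345 and 0.0435, edgeR), 3 of 9 beside 0.434% of genes. *C1qb* stood at 145 and 478 CPM in young and at 212 and 892 CPM in middle-aged recipients, and *C3ar1* at 25.8 and 67.8 against 63.7 and 104 CPM. The middle-aged library was the higher on each day, but the ages overlapped. In this cluster the T cell markers were also higher in the middle-aged library on each day, as given above, and the 11 neutrophil markers lower, at 7187 against 5724 CPM on day 6 and 16421 against 6572 CPM on day 10 (young against middle-aged), and their part was not tested. *C4b* in cluster 5 rested on 56 to 185 UMIs a library, and its log2 ratio of plain CPM was 1.88 on day 6 and 0.79 on day 10. That of *C3ar1* was 1.31 and 0.62 and that of *C1qb* 0.55 and 0.90. DESeq2 called 0 of the 9 for age in cluster 5, where 7 had an unadjusted p under 0.05 by edgeR.

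By day, *Cfb*, which was highest in cluster 1, had age ratios of opposite sign there on the days. Its log2 ratio was 0.53 [0.50, 0.55] on day 6 and -0.72 [-0.75, -0.69] on day 10. *C3* in cluster 1 stood at 0.47 [0.43, 0.50] and 0.08 [0.04, 0.11], and the C1q genes at -0.34, -0.14 and -0.16 on day 6 and at 0.30, 0.36 and 0.33 on day 10. With up to 51038 UMIs of a gene in a library, the counting intervals are narrow and say nothing about the spread between mice. In cluster 5 the C1q genes were higher in the middle-aged library on both days, at 0.16, 0.55 and 0.48 on day 6 and at 0.76, 0.90 and 0.86 on day 10. *C5ar1* stood at 0.92 [0.75, 1.09] and 0.38 [0.18, 0.58] in that cluster.

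In dendritic cell-like cluster 7 on day 6, 6 of the 7 genes with 100 UMIs were at least 1.5-fold higher in middle-aged recipients, beside 7.89% of 6752 genes, with a median of 1.02 beside -0.08 over all genes. *Cfb* stood at 57.5 CPM in the young and 188 CPM in the middle-aged library (1.71 [1.52, 1.90]). The log2 ratio was 1.15 [0.61, 1.69] for *C5ar1*, 1.02 [0.80, 1.23] for *C3* and 0.74, 0.79 and 1.03 for the C1q genes, and *Cfp*, which was highest in this cluster, was the exception at -0.16 [-0.28, -0.03]. The 6 genes thus included the C1q genes, which moved together. *C1qa* rested on 276 young and 204 middle-aged UMIs and *C5ar1* on 61 and 60, and the part of free RNA in these levels was not tested. On day 10 none of 6 genes was 1.5-fold higher, beside 3.1% of genes, with a median of 0.15 beside -0.00, and *Cfb* stood at 58.5 and 46.0 CPM. The cluster held 626, 289, 198 and 319 cells. On day 6 its 9 dendritic cell markers summed to 1492 CPM in the young and 2955 CPM in the middle-aged library, its 8 NK markers to 210 and 69.9 CPM and its monocyte markers to 6047 and 6407 CPM, and their part was not tested.

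In bulk microglia of naive mice, without EAE, C1q again had the highest levels per length of the 9 genes and each chain was close at both ages, at most 1.03-fold apart. *C1qa* stood at 2912 CPM in the young and 2996 CPM in the middle-aged library, *C1qb* at 3235 and 3346 CPM and *C1qc* at 2603 and 2645 CPM. Per kilobase of exon, *C1qb* stood at 2973 and 3075 and *C1qa* at 2800 and 2881 CPM per kb, above *C1qc* at 1348 and 1370. *C3ar1* (350.7 and 350.4 CPM), *C5ar1* (97.9 and 109.8) and *C4b* (65.5 and 62.2) were also within 1.5-fold. *C3* was higher in middle-aged mice, at 20.5 against 11.6 CPM, or 1565 against 923 counts, a log2 ratio of 0.82 [0.70, 0.94]. *Cfp* was lower, at 2.49 against 3.92 CPM (-0.65 [-0.92, -0.39]), and *Cfb* had 1 and 4 counts, for which no ratio is given.

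Of the 8 genes with 100 or more counts in bulk, 1 was at least 1.5-fold higher beside 4.82% of 14821 genes, and 1 lower beside 9.59%. Their median was 0.03 beside -0.01 over all genes. With 1 library per age there was no test, and in bulk samples fewer cells of a type and less RNA per cell cannot be told apart. Markers of other cells differed between the libraries. Endothelial markers were lower in middle-aged mice in 8 of 9 genes (680 against 164 CPM summed), pericyte and fibroblast markers in 6 of 6 with 100 counts (147 against 38.4 CPM) and border macrophage markers in 6 of 9 (1173 against 1044 CPM). The 10 microglia markers summed to 31667 and 29845 CPM and 0 of them were 1.5-fold apart. Neutrophil markers summed to 695 and 828 CPM, and their part in the ratio of *C3* was not tested.

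A list of 41 other complement genes, of which 33 were in the single-cell table, was taken for comparison. For the day, in cluster 10, 5 of the 13 that were tested rose, beside 3.18% of all genes, and 0 fell. These were *C2*, the classical pathway partner of C4, *Serping1*, the C1 inhibitor, *Colec12*, *Itgax* and *Cd93*. *C2* stood at 2.91, 5.04, 23.9 and 15.8 CPM and *Serping1* at 1.16, 8.81, 35.0 and 21.0 CPM, so both stayed far below *C4b*. In cluster 8, 4 of 11 rose, beside 6.5%, namely *C1ra*, *Colec12*, *Itgax* and *Cd93*. In cluster 1, 4 of 20 rose beside 14.7%, and in cluster 5, 2 of 13 rose beside 10.2%, counts near the share over all genes. For age, edgeR called 0 of them in any of the 4 clusters, with an unadjusted p under 0.05 for *Cd55* in cluster 1 and *Itgax* and *Cd93* in cluster 5. In bulk, 21 of the 41 had 100 counts, of which 1, *Itgax* (0.85), was at least 1.5-fold higher in middle-aged mice beside 4.82% of all genes, and 9 were lower beside 9.59%, with a median of -0.16. Those lower included *Clu*, at 43.0 and 6.68 CPM (-2.69), *Vtn* (-1.53), *Cd93* (-1.43) and *Colec12* (-1.37), beside the lower endothelial and pericyte markers given above. Endothelial and pericyte transcripts were found in both bulk libraries, although the paper gives a CD45int CD11b+ gate for microglia. The part of such cells in these ratios was not tested. *Itgam* and *Itgb2*, the chains of complement receptor CR3, differed by -0.11 and 0.07 in bulk, and *Itgam* stood at 800, 567, 502 and 564 CPM in cluster 10.

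Likeness of pattern was measured by Pearson's r of log2 levels over the 16 clusters among 5119 genes, which share libraries and depth, and is given as a description. The genes most like *C1qa* were *C1qc* (0.998), *C1qb* (0.995), *Ccl12* (0.977) and *Trem2* (0.973), a lipid receptor of microglia. *C4b* was most like *C1qc* (0.961). *C3* was most like *Prdx5* (0.973) and reached 0.85 with *C5ar1* but 0.28 with *C1qa*. *Cfb* was most like *Arg1* (0.969), an arginase of activated macrophages, *C3ar1* like *Slc7a8* (0.965), *C5ar1* like *Cd33* (0.981) and *Cfp* like *Pirb* (0.907). *Cfb* reached 0.92 with *C3ar1*, although their leading clusters differed.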

How the data were processed

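CD45+ spinal cord cells of 4 single-cell libraries and microglia of 2 bulk libraries were analysed. For the single cells, the submitters' processing notes name Cell Ranger 3.1.0, bcl2fastq and mm10. The authors removed cells by depth and by mitochondrial and ribosomal share, aligned the libraries with anchors and clustered the cells in Seurat, and deposited UMI counts without normalization beside a cluster number per cell. The bulk file holds read counts as deposited, which the authors made with fastp, HISAT2 and featureCounts, without use of strand, on GRCm38.p6. The labels of the bulk samples repeat the single-cell protocol, while the paper gives a CD45int CD11b+ gate for microglia.

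Cells are not replicates, so UMIs were summed by cluster and library and scaled to CPM. Ratios between single libraries carry a conditional binomial 95% interval (exact, counting error only) and were counted as apart from 1.5-fold where a pair held 100 or more counts. Terms for age and day were tested in R 4.3.3 with edgeR 4.0.16 (quasi-likelihood, TMM, genes with 10 or more UMIs in 2 or more libraries, Benjamini-Hochberg adjusted p under 0.05) and again with DESeq2 1.42.0. Python 3.11.15 was used with pandas 2.3.3, numpy 2.4.6, scipy 1.17.1 and matplotlib 3.10.9. No doublet caller was run.

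Tested on simulated data with known changes in the age term, the fit recovered 56.0%, 30.1%, 57.6% and 70.9% of genes with a 2-fold change and 93.6%, 89.7%, 94.1% and 94.8% of those with a 4-fold change in clusters 10, 8, 1 and 5, with 5 to 9 calls among unchanged genes. The simulated counts shared a common dispersion and held no day effect and no difference between the days in the effect of age. The real data held both, so these rates do not carry over to them. The day term was not simulated.

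Members, gene lists and tests were chosen with earlier results of these data known. All 9 members are named. Other complement genes could be named where they reached 50 CPM in a cluster or 5 CPM in bulk, but not all of these were described above. Among those left out, *C5ar2*, *Cr1l*, *C1qbp* and *Masp1* reached 5 CPM in bulk. Their log2 ratios there, middle-aged to young, were -0.14, -0.00, 0.05 and 0.57, each within 1.5-fold. *C2* and *Serping1* fall outside this rule and were named after their values were seen. The values of 1 gene of the list are not reported here. Alternatives changed the scaling, the filter, the terms, the tool, the depth per cell, the mean over cells and the cells kept. Those that use monocyte or microglial markers to choose cells were added after the data were seen.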

Additional observations from a re-analysis of the deposited data

Results flagged for a closer look

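The results below are those whose age difference had opposite signs on the days, with both counting intervals off 0. Values are log2 of the middle-aged CPM divided by the young CPM, each between 1 library per age, and the difference between the days was not tested.

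In microglia-like cluster 10, *C4b* stood at 1.26 on day 6 and -0.42 on day 10, and *Cfb* at 1.19 and -0.45. In both genes the young day 6 library was the lowest of the 4, at 57.3 CPM for *C4b* and 60.5 CPM for *Cfb*, and the young day 10 library the highest, at 351 and 257 CPM. That young day 6 library also held the most heat shock transcripts and the highest sum of microglia markers in this cluster, whose part was not tested.

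The C1q genes went from lower to higher in middle-aged recipients in clusters 8 and 1, but not in clusters 10 and 5. In microglia-like cluster 8 *C1qa* stood at -0.26 and 0.33, *C1qb* at -0.39 and 0.23 and *C1qc* at -0.25 and 0.20. In monocyte/macrophage-like cluster 1 *C1qa* stood at -0.34 and 0.30, *C1qb* at -0.14 and 0.36 and *C1qc* at -0.16 and 0.33. *Cfb* in cluster 1 went the other way, from 0.53 to -0.72. The share of *C1qa*-positive cells of cluster 8, thinned to 2000 UMIs, was 100% in young and 97.9% in middle-aged recipients on day 6, and 78.6% and 87.9% respectively on day 10, beside the monocyte markers that were higher in this cluster on day 10.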

How the results depend on the processing

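No age ratio of at least 1.5-fold changed sign under any alternative run. Smaller ratios did, and of these *C3* in cluster 8 on day 10 had an interval off 0 (0.16, and -0.19 by the mean over cells), while *C4b* in cluster 8 on day 6 went from -0.09 to 0.65 without monocyte-marker cells. Members at least 1.5-fold apart between the ages, cluster 10 on day 10, were 0, but 2 without cells of other lineages' markers, 1 without monocyte-marker cells and 1 by the mean over cells. In cluster 8 they went from 1 on day 6 to 2 among cells with 2000 or more UMIs and 3 without monocyte-marker cells, and from 0 on day 10 to 1 without monocyte-marker cells and 1 by the mean over cells. Members called for the day in cluster 10 went from 3 to 1 with DESeq2 (*C3*) and 1 without the age term (*C4b*), and in cluster 8 from 5 to 3 without monocyte-marker cells. Members called for age in cluster 5 went from 3 to 0 with DESeq2, 0 without the day term in edgeR and 5 without the filter on low counts. The causes were not tested beyond what each setting removes.

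Among all genes, calls for age were 15 in cluster 10 (DESeq2 5, microglial-marker cells 7, without monocyte-marker cells 1, no filter 53), 8 in cluster 8 (DESeq2 2, no filter 41), 12 in cluster 1 (RLE scaling 4, no filter 3) and 68 in cluster 5 (DESeq2 21, RLE scaling 159, no filter 303). Without the day term edgeR called 0 in each, with 60, 53, 42 and 98 at an unadjusted p under 0.05, and without monocyte-marker cells it called 0 in cluster 8, with 134. Calls for the day were 701 in cluster 10 (DESeq2 138, without monocyte-marker cells 168, no filter 1201), 1122 in cluster 8 (DESeq2 248, without monocyte-marker cells 88), 3654 in cluster 1 (DESeq2 1923) and 2651 in cluster 5 (DESeq2 1159).

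With 1 library left out no residual degree of freedom remained, so the value was the ratio of the other pair, with no test. None of 80 such values, for the members called in the fit, reversed, and 54 differed from the fit by more than its SE. Leaving out either library of a pair gives the same ratio, so the values come in identical pairs. The members were called in a fit of these same ratios, with their disagreement as its residual. A reversal was therefore unlikely in advance, and its absence is no check of the calls. The values are ratios of plain CPM while the fit is scaled by TMM, so a move also holds the difference in scaling. The day difference of *C4b* in cluster 10 then ran from 0.94 to 2.61, that of *Cfb* from 0.45 to 2.09 and that of *C3* in cluster 8 from 0.79 to 1.79, and the age difference of *C4b* in cluster 5 from 0.79 to 1.88. No paired analysis was possible because each age and day had 1 library. Depth limits *Cfb* in bulk (1 and 4 counts) and *Cfp* in cluster 8 on day 6 (12 and 33 UMIs). It also limits the other genes that rose in cluster 8, whose day 6 counts were low (young and middle-aged). These were 32 and 73 UMIs for *Cfb*, 31 and 64 for *C3ar1*, 53 and 237 for *C3* and 58 and 109 for *C4b*. In the young library 10 cells held 79.2% of the *C3* UMIs.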
